A study of Sus scrofa with 40 samples.

Results

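Collagens are the main proteins of the connective tissue that surrounds muscle fibres and fibre bundles. Their chains wind into a triple helix of Gly-X-Y triplets, each begun by a glycine, and the helices are then assembled outside the cell. COL1A2 encodes the second chain of type I collagen, the thick fibrils of the perimysium, and COL5A3 a chain of type V collagen, which lies within such fibrils. COL6A3 encodes a chain of the beaded type VI filaments next to cells, while COL15A1 and COL18A1 encode collagens of the basement membrane zone of muscle fibres and vessels. Fibroblasts are known as the main source of fibrillar collagen RNA in muscle.

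The collagen probes described are 6 of the 15198 gene probes of the array, chosen by probe name. They are BM190694.1_1635 and Z99080.1.s_1711 for COL1A2, CF178393.1_5963 for COL5A3, BX669980.1_324 for COL6A3, BQ602320.1_1596 for COL15A1 and BQ604639.1_1593 for COL18A1, so that 6 probes stand for 5 genes. All 6 were well above background in Cy3 on 20 of 20 B arrays and 20 of 20 LW arrays, and all 6 were tested. Their symbols come from the study's list of genes with higher expression in LW, which was drawn up on these same arrays. A lower value in B is therefore a property of how the probes were named, and the breed differences below are a description that supports nothing by its direction. Housing and the interaction played no part in the naming. Relations between probes were not used in it either, but the study's list was filtered for variability, so that the naming may not be neutral for them.

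RNA was taken from the longissimus muscle (LM, the loin) of 40 castrated male pigs, 20 of the local Basque breed (B) and 20 of the commercial Large White breed (LW), labelled with a live weight of 145 kg. In each breed 10 pigs were kept in conventional housing (C, slatted floor indoors) and 10 in alternative housing (A, bedding with access to an outdoor area). B pigs were older than LW pigs at the same weight, and the paper also names feeding as confounded with breed. Breed, age and feeding therefore cannot be told apart. From each litter, 2 pigs went to different housing systems. On each array the RNA of 1 pig, labelled with Cy3, was set against a pool of all 40 pigs, labelled with Cy5, with no dye swap. Values are log2 ratios of pig to pool after each array's median is subtracted. With no dye swap, 0 need not be the level of the pool for a given probe. For COL18A1, for example, the means of both breeds lay below 0 (-0.39 in B and -0.10 in LW). Single arrays correlated with each other between -0.34 and 0.83 over the tested probes, and the direction of the ratio is that stated in the methods. Between 10447 and 13441 probes were well above background on the B arrays (median 11996.5) and between 11094 and 12589 on the LW arrays (median 11907). In a bulk muscle sample, fewer cells that make collagen and less collagen RNA per cell cannot be told apart.

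The probes of COL15A1 and COL18A1 and the first of the COL1A2 probes passed the test between breeds, and all 6 collagen probes had a lower mean in B. In limma, 3 of 6 were called lower in B at an adjusted P value under 0.05, against 9.61% of all 12222 tested probes called lower in B and 21.2% called in either direction. Among the 683 probes of the study's list, 74.5% were called lower in B, and nothing is read from the collagen count beside it. The median difference (B minus LW) was -0.23 over the 6 probes and 0.00 over all tested probes.

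On the COL1A2 probe BM190694.1_1635 the B values reached from a lowest log2 ratio of -1.74 over a median of -0.48 to a highest of 0.65, and the LW values from -1.56 over 0.27 to 0.86. Both breeds overlapped over most of this range, but the LW median was above 18 of 20 B values. The difference was -0.50 (SE 0.17, 1.41-fold lower in B, adjusted P = 0.0327 in limma, n = 20 per breed), and the means ± SD were -0.45 ± 0.54 in B and 0.10 ± 0.53 in LW. Without any 1 of 7 pigs (B conventional replicate 2, B alternative replicates 14 and 19, LW conventional replicates 4 and 6, LW alternative replicates 11 and 12) the adjusted P value was between 0.0502 and 0.0731, so that this call lies close to the threshold.

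On the other COL1A2 probe, Z99080.1.s_1711, B values reached from -0.28 over a median of 0.12 to 0.64, and LW values from -0.17 over 0.29 to 0.81. The difference of -0.18 (SE 0.07) did not pass the test across all probes (adjusted P = 0.0700), although the LW median was above 17 of 20 B values. It passed without B conventional replicate 8 (adjusted P = 0.0378) or LW conventional replicate 8 (adjusted P = 0.0152), and in 7 of 21 other settings, so that its place by the threshold depends on the processing. For COL5A3 the range was -0.37 to 0.24 in B (median -0.17) and -0.74 to 0.61 in LW (median 0.03), with a difference of -0.18 (SE 0.08, adjusted P = 0.0863). LW pigs spread on both sides of all B pigs here, and the probe passed the test without LW conventional replicate 8 (adjusted P = 0.0473) or LW alternative replicate 11 (adjusted P = 0.0219). It also passed in 3 of 21 other settings.

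COL6A3 ran from -0.52 to 0.48 in B (median -0.12) and from -0.42 to 0.64 in LW (median 0.12). Its difference of -0.18 (SE 0.08, adjusted P = 0.124) was the least certain of the set, and the breeds overlapped except for 1 B pig below all LW pigs and 2 LW pigs above all B pigs.

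The COL15A1 probe had a narrow range in B, from -0.80 to 0.19 (median -0.40, SD 0.21), and a wide one in LW, from -1.33 to 0.65 (median 0.13, SD 0.48). The LW median was above 19 of 20 B values, and 5 LW pigs lay above all B pigs, yet the lowest pigs on this probe were LW pigs. The difference was -0.36 (SE 0.11, 1.28-fold lower in B, adjusted P = 0.0206). COL18A1, whose C-terminal fragment is endostatin, ran from -0.69 to 0.28 in B (median -0.45) and from -0.63 to 0.32 in LW (median -0.05). B values were mostly at the lower end, 17 of 20 of them under the middle of LW. The difference was -0.28 (SE 0.08, 1.21-fold lower in B, adjusted P = 0.0154). In another setting the Cy3 intensity was taken after Rquantile, which brings the pool channel to the same distribution on every array. This value still holds the ratio to the pool, and array medians were not subtracted. None of the 3 calls was kept there. The differences in limma were -0.43 for the first COL1A2 probe (SE 0.17, adjusted P = 0.0687), -0.26 for COL15A1 (SE 0.12, adjusted P = 0.113) and -0.25 for COL18A1 (SE 0.11, adjusted P = 0.103). The median difference of all probes was 0.07 in this setting, and 371 of 2337 called probes were lower in B. Which step moves the calls was not tested.

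**Figure D1:**
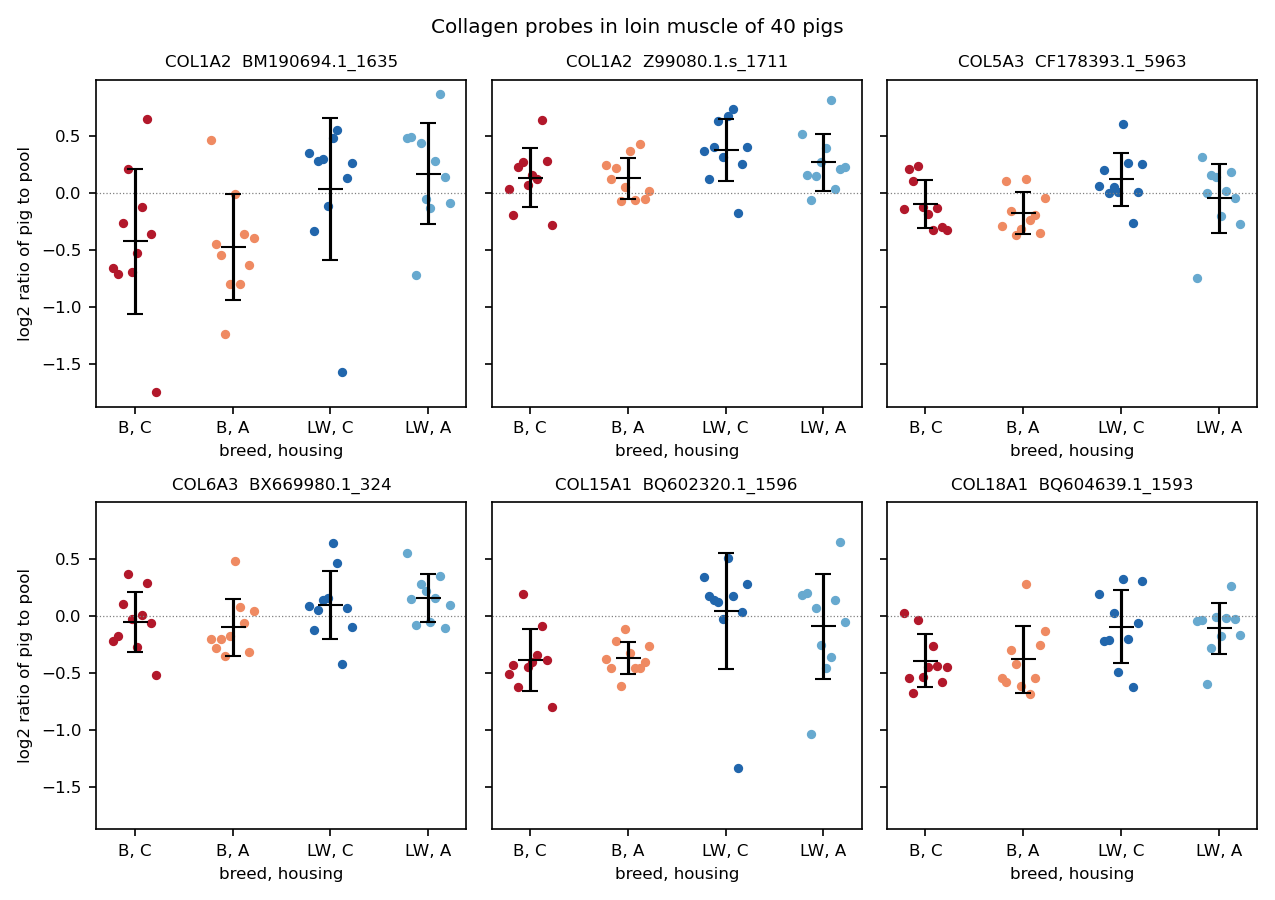
Log2 ratio of pig to pool (vertical axis) for the 6 collagen probes in the 4 groups of breed and housing (horizontal axis), with 1 point per pig, 10 pigs per group, and the mean ± SD in black. The breeds overlap on every probe, conventional and alternative pigs of a breed overlap on every probe, and single low pigs stand out on the first COL1A2 probe (-1.74 in B, -1.56 in LW) and on COL15A1 (-1.33 in LW).

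Every slide held pigs of both breeds, and within slides the B mean was lower on 5 to 6 of 7 slides for each probe. For the first COL1A2 probe the difference within slides ran from -1.12 to 0.08, for COL15A1 from -0.87 to 0.18 and for COL18A1 from -0.57 to 0.02, on slides of 2 to 7 arrays. Within the 3 scan days the B mean was lower on each day for all 6 probes, between -1.09 and -0.28 for the first COL1A2 probe, between -0.57 and -0.14 for COL15A1 and between -0.40 and -0.25 for COL18A1. Within a single housing system 0 of 6 collagen probes were called lower in B, in C pigs (against 2.93% of the tested probes) or in A pigs (against 4.72%). The unadjusted P value was under 0.05 for 3 of 6 in each, where 2803 (C) and 2706 (A) of 12222 tested probes also had one in either direction. The COL1A2 difference was -0.34 (SE 0.24) in C and -0.65 (SE 0.24) in A, that of COL15A1 -0.41 (SE 0.16) and -0.31 (SE 0.16), and that of COL18A1 -0.28 (SE 0.12) in both.

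The COL1A2 probes did not give the same size of breed difference. Taken within each array, the first probe minus the second was -0.58 ± 0.38 in B and -0.22 ± 0.44 in LW (SD, n = 20 each), with a median of -0.61 in B (-1.46 to 0.22) and -0.19 in LW (-1.39 to 0.83). The groups overlapped, although 17 of 20 B values were under the middle of LW. Between breeds this within-array value differed by -0.36 (SE 0.13, two-sided permutation test, P = 0.0085). Within slides it ran from -0.91 to 0.17, and within scan days 1 to 3 it was -0.64, -0.19 and -0.47. It was -0.18 with the scanner software's processed signals (P = 0.13) and -0.21 in the deposited log2 values (P = 0.079), settings that change both background and normalization, and -0.34 with no background correction. Which step moves it was not tested. The spot of Z99080.1.s_1711 had a median Cy3 signal of 115 (78.1 to 171) over a local background of 44, and its breed difference was -0.45 with the processed signals (adjusted P = 0.0179).

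For some of the probes the sequence shows which part of a collagen is read. The probe Z99080.1.s_1711 and the COL6A3 probe lie in the triple helix, where 7 glycine codons follow each other at steps of 9 bases without a stop codon. Of the 15198 gene probes, 5 hold a run of at least 5 such codons in the orientation given by the files. These probes are printed with the glycine codons of the run in capitals, since such a repeat can be seen without a gene name. The run alone does not name a gene, and the unnamed probes are not taken to be collagens.
Z99080.1.s_1711: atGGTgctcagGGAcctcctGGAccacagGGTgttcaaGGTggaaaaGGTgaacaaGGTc
BX669980.1_324: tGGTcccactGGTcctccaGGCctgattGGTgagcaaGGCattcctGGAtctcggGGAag
BE236040.1_244: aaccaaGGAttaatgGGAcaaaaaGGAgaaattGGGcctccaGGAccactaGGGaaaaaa
BP151619.1_1097: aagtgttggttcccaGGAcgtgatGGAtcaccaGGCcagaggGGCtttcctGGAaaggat
BI346625.1_429: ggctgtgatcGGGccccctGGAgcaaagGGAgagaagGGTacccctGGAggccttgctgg
The first COL1A2 probe, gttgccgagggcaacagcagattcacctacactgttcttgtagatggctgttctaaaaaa, is shown for contrast. It has no such run, so the COL1A2 probes read different stretches of the RNA. The COL18A1 probe holds aataaa, the hexamer of the polyadenylation signal, searched in the given orientation only, as do 8.7% of all gene probes.

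The unnamed probes with a glycine run were found by sequence after the data were seen and have no symbol in the sources used here. A probe without a symbol is one absent from the study's list of probes higher in LW. The lack of a breed call in these probes is therefore bound to how they were picked, and nothing is read from it. BI346625.1_429 was well above background on all 40 arrays and ran from -0.16 to 0.24 in B (median 0.12) and from -0.05 to 0.34 in LW (median 0.14). Its difference of -0.04 (SE 0.03, adjusted P = 0.518) was smaller than the spread between pigs (SD 0.10 in either breed). BP151619.1_1097 was well above background on 9 B arrays and 16 LW arrays and so entered the tests through LW alone. Its difference was -0.06 (SE 0.05, adjusted P = 0.484), from which nothing is read. The remaining probe, BE236040.1_244, was well above background on 1 array of each breed and was not tested.

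A further probe of the COL15A1 contig, BQ602320.1_1536, is absent from the study's list of probes higher in LW on these arrays. Its choice is therefore not free of the breed outcome, and nothing is read from its lack of a breed call. It ran from -1.08 to 0.33 in B (median -0.34) and from -1.59 to 0.51 in LW (median 0.11). Again the LW median was above 18 of 20 B values, while the lowest values belonged to LW pigs. The difference of -0.19 (SE 0.14, adjusted P = 0.339) did not pass the test, and its 95% interval from -0.47 to 0.08 includes the -0.36 of the listed probe. The B mean was lower on 5 of 7 slides (-0.65 to 0.41) and on 2 of 3 scan days, with 0.07 on day 2 (10 pigs per breed), so that this probe does not share the direction of the listed ones on every day. From pig to pig the COL15A1 probes followed each other, with r = 0.93 (permutation P = 1e-05, the smallest that 100000 resamples can give) and rho = 0.72 (permutation P = 0.00051) in 20 LW pigs. In 20 B pigs r was 0.73 (permutation P = 0.00047) and rho 0.56 (permutation P = 0.011). Over the 4 relations of this kind the adjusted permutation P values for r were 4e-05 and 0.00094, and r without the 2 pigs farthest from the median was 0.75 in LW and 0.46 in B. Within scan day 2 (10 pigs per breed) r was 0.98 in LW and 0.43 in B, and within scan day 3 (7 pigs per breed) 0.44 and 0.90. The remaining relations of this kind were those of the COL4A2 probe BM484285.1_1409 with BM484285.1_987 of the same contig, with r = 0.60 in 18 LW pigs (rho = 0.48, permutation P = 0.0081 and 0.045) and r = -0.18 in 18 B pigs (rho = 0.18, permutation P = 0.5 and 0.47). In LW the adjusted permutation P values were 0.011 for r and 0.06 for rho, and without 2 pigs r was 0.33 in LW and 0.32 in B, so that no relation is read from this contig.

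**Figure D2:**
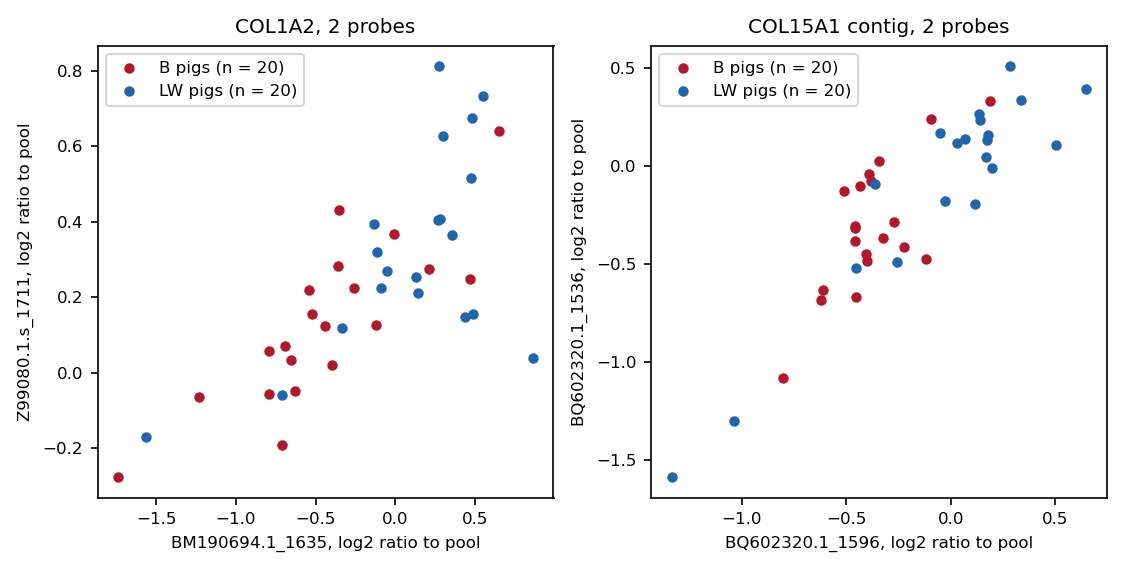
Log2 ratio of pig to pool on paired probes, with 1 point per pig, B pigs in red and LW pigs in blue (n = 20 each). On the left the COL1A2 probes BM190694.1_1635 (horizontal) and Z99080.1.s_1711 (vertical) are set against each other, with r = 0.82 in B and 0.56 in LW; on the right the COL15A1 probe BQ602320.1_1596 (horizontal) and BQ602320.1_1536 of the same contig (vertical), with r = 0.73 in B and 0.93 in LW.

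Housing moved no collagen probe past the test. In limma 0 of 6 collagen probes and 0 of 12222 probes (0%) were called between alternative and conventional pigs, in both breeds together or within B or LW, and an analysis of variance in 2 steps, as in the methods, also called 0. At an unadjusted P value under 0.05 there were 0 of 6 collagen probes, against 2.77% of the tested probes for both breeds, 2.41% within B and 2.95% within LW. The first COL1A2 probe had medians of -0.44 in conventional B pigs (-1.74 to 0.65), -0.49 in alternative B pigs (-1.23 to 0.47), 0.27 in conventional LW pigs (-1.56 to 0.55) and 0.21 in alternative LW pigs (-0.71 to 0.86). The housing groups overlapped in either breed, and the lowest pig was a conventional one in both. Alternative minus conventional was 0.10 for this probe, with a 95% interval from -0.26 to 0.45, which leaves room for differences of the size seen between breeds on the other probes.

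The other probes had narrower intervals. The second COL1A2 probe differed between housing systems by -0.03 (95% interval -0.18 to 0.12), COL5A3 by -0.12 (-0.28 to 0.04) and COL6A3 by 0.03 (-0.14 to 0.21). COL15A1 differed by -0.06 (-0.29 to 0.18) and COL18A1 by -0.03 (-0.21 to 0.15). COL15A1 had medians of -0.42 and -0.39 in conventional and alternative B pigs and 0.15 and 0.01 in LW pigs. COL18A1 had medians of -0.45 and -0.49 in B and -0.13 and -0.04 in LW. For these 5 probes the intervals lie within 0.30 of 0 in either direction, and none of them shows that the housing systems were alike.

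The interaction, which asks whether the breed difference depends on housing, was called for 0 of 6 collagen probes and 0 of 12222 probes in limma. At an unadjusted P value under 0.05 there were 0 of 6 against 2.64% of the tested probes. The widest interaction was that of the first COL1A2 probe, -0.30 (SE 0.34, adjusted P = 0.968), and the lowest unadjusted P value of the set was 0.38.

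The spread between pigs differed among the collagen probes. The study's list was drawn up after its authors had removed the least variable spots, so that a spread above that of most probes is in part a matter of naming. The residual SD, after breed, housing and slide, was 0.55 for the first COL1A2 probe, larger than that of 98.8% of tested probes, and 0.36 for COL15A1, larger than that of 94.4%. It was 0.27 for COL18A1, 0.26 for COL6A3, 0.24 for COL5A3 and 0.23 for the second COL1A2 probe, against a median of 0.17 over all tested probes.

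Within a breed the collagen probes tended to be high or low in the same pigs. All 15 pairs had a positive r in 20 B pigs (0.13 to 0.82, median 0.39) and in 20 LW pigs (0.14 to 0.80, median 0.46). Over all pairs of probes measured on every array of a breed the median r was 0.05 in B and 0.03 in LW, and 11.3% of pairs in B and 10.3% in LW reached the collagen median. These probes were not filtered for variability as the study's list was. Probes with a symbol also lay closer to the mean of the collagen probes than all other tested probes did (median r 0.16 against 0.06). Of the 30 relations in both breeds, 7 in B and 7 in LW had an adjusted permutation P value under 0.05 for Pearson's r, and 2 in each for Spearman's rho. A pair was called when both passed, which left 2 pairs in B and 2 in LW, with 1 pair called in both. These counts are not steady, since leaving out a single pig gave 1 to 6 called pairs in either breed, and other settings up to 8 in B and 9 in LW.

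The shared pair was that of the first COL1A2 probe with COL6A3, with r = 0.68 in B (permutation P = 0.00093, adjusted 0.0046; rho = 0.61, permutation P = 0.0054, adjusted 0.041). In LW the same pair had r = 0.75 (permutation P = 0.00014, adjusted 0.0016; rho = 0.73, permutation P = 0.00042, adjusted 0.0063). Without the 2 pigs farthest from the median of COL1A2, r was 0.52 in B and 0.63 in LW. The COL1A2 probes were called in B only by this rule, with r = 0.82 (permutation P = 2e-05, adjusted 0.0006) and rho = 0.85 (permutation P = 1e-05, the smallest that can be given, adjusted 0.0003), and r = 0.67 without 2 pigs. In LW their r was 0.56 (permutation P = 0.0089) and rho 0.40 (permutation P = 0.082), with r = 0.18 without 2 pigs and 0.69 on residuals after housing and slide. Their r was 0.51 in the 10 LW pigs of scan day 2 and 0.59 in the 7 of scan day 3. The difference between breeds was not tested. The first COL1A2 probe and COL15A1 were called in LW, with r = 0.80 (permutation P = 0.00026, adjusted 0.0019) and rho = 0.62 (permutation P = 0.0042, adjusted 0.041), and r = 0.37 without 2 pigs. Among all pairs of the 11659 tested probes measured on every B array and the 11606 measured on every LW array, 1.5% in B and 0.59% in LW had an r at or above that of the lowest called collagen pair, 0.68 and 0.75.

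**Figure D3:**
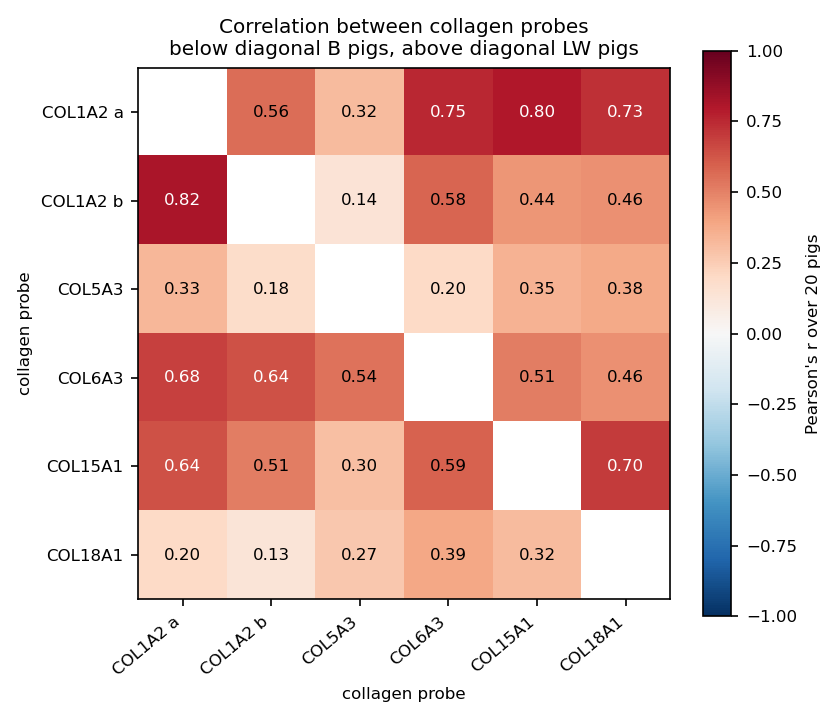
Pearson's r between the 6 collagen probes over 20 B pigs (below the diagonal) and 20 LW pigs (above the diagonal), on a colour scale from -1 to 1, with COL1A2 a for BM190694.1_1635 and COL1A2 b for Z99080.1.s_1711. All 30 values are positive, from 0.13 to 0.82, and COL5A3 has the palest cells in LW.

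The relation did not hold within every scan day. In the 10 B pigs scanned on day 2 the median r over the 15 pairs was -0.11 (-0.52 to 0.81), with 6 of 15 pairs positive. In the 10 LW pigs of the same day it was 0.68 (0.12 to 0.93), and on day 3 it was 0.67 in 7 B pigs (0.23 to 0.96) and 0.58 in 7 LW pigs (0.04 to 0.87), all 15 pairs being positive in these 3 sets. The shared pair of COL1A2 and COL6A3 had r = -0.14 and 0.85 in B and 0.93 and 0.63 in LW on days 2 and 3. The first COL1A2 probe with COL15A1, the other pair called in LW, had r = 0.86 on day 2 and 0.23 on day 3 in LW. Scan day 1 held 3 pigs per breed, too few for a value. On residuals after housing and slide the median r was 0.40 in B and 0.48 in LW, with 4 and 5 pairs called.

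Some pigs stood at the end of their breed on several probes. LW conventional replicate 8 was the lowest LW pig on 5 of 6 probes, with -1.56 on the first COL1A2 probe, -1.33 on COL15A1 and -0.63 on COL18A1. B conventional replicate 10 was the lowest B pig on 4 of 6 probes, with -1.74 on the first COL1A2 probe, -0.80 on COL15A1 and -0.52 on COL6A3. At the upper end, LW conventional replicate 6 was the highest LW pig on 3 probes, and B conventional replicate 4, B conventional replicate 8 and B alternative replicate 16 were each the highest B pig on 2 probes. The arrays of the lowest LW and B pigs had 12487 and 11772 probes well above background, within the range of their breeds. With both of these lowest pigs left out, a setting chosen after the data were seen, all 15 pairs were again positive in either breed, with a median r of 0.38 in B, next to 0.39 with all pigs, and 0.31 in LW, next to 0.46. Only 1 pair was then called in each, the COL1A2 probes in B (r = 0.77) and COL1A2 with COL6A3 in LW (r = 0.64). COL1A2 with COL6A3 in B (r = 0.60) and COL1A2 with COL15A1 in LW (r = 0.63) still passed for Pearson's r (adjusted permutation P = 0.037 and 0.036) but not for Spearman's rho (0.12 in both). The number of probes well above background on an array had r = 0.07 with the mean of the standardized collagen residuals in B and -0.29 in LW, and its part in the relations was not tested.

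The probes most like the collagen set were sought by the r of their residuals over 40 pigs with the mean of the 6 standardized collagen residuals. Most probes have no symbol in the sources used here, and the symbols come from the study's list, so that no theme is read from the names. Among 12198 other probes the median r with this mean was 0.06, and 5.62% had an r over 0.5; among the 677 of them with a symbol it was 0.16 and 17.0%. The 8 closest with a symbol were FSTL1, a secreted glycoprotein of the SPARC family (r = 0.86, rho = 0.79), MARCKS, an actin-binding substrate of protein kinase C (r = 0.85, rho = 0.81), DCN, decorin, which binds collagen fibrils (r = 0.85, rho = 0.70), ASPN, asporin of the same proteoglycan family (r = 0.83, rho = 0.75), CCDC80, a matrix protein (r = 0.81, rho = 0.74), USP47, a ubiquitin protease (r = 0.81, rho = 0.78), COL16A1, a fibril-associated collagen (r = 0.80, rho = 0.72), and FSCN1, which bundles actin (r = 0.78, rho = 0.68). Without the 2 pigs farthest from the median of the collagen mean, these r values lay between 0.65 for FSCN1 and 0.80 for FSTL1. They are the highest of many and are given with no P value. Of the unnamed probes with a glycine run, BI346625.1_429 had r = -0.05 with the collagen mean (-0.22 in B, 0.08 in LW). BP151619.1_1097 had r = 0.41, and 0.15 without 2 pigs.

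Of these 8 probes 1, that of COL16A1, passed the test between breeds in limma. Beside it stand 74.5% of the study's list and 9.61% of all tested probes called lower in B, and nothing is read from this count. A further probe of CCDC80, BP146277.1_2298, also passed (-0.62, SE 0.17, adjusted P = 0.00842). DCN had a breed difference of -0.17 (SE 0.10, adjusted P = 0.219) and ASPN of -0.17 (SE 0.13, adjusted P = 0.395), whereas COL16A1 differed by -0.45 (SE 0.09, adjusted P = 0.000743). The closest probes without a symbol were BM190071.1_4661 (r = 0.90, rho = 0.85), which was lower in B (-0.73, SE 0.23, adjusted P = 0.0231), and AW435849.1_74 (r = 0.88, rho = 0.84; breed difference -0.21, SE 0.11, adjusted P = 0.174). Probe by probe, the closest outside the set was BM190071.1_4661 for the first COL1A2 probe (r = 0.91), AJ686996.1_4 for the second (r = 0.79), BQ604830.1_1516 for COL5A3 (r = 0.69), CF179132.1_1166 for COL6A3 (r = 0.81), the second probe of its own contig for COL15A1 (r = 0.92) and AJ647268.1_443 for COL18A1 (r = 0.86). Against the mean of the other 5 collagen probes, r was highest for the first COL1A2 probe (0.85) and COL6A3 (0.73) and lowest for COL5A3 (0.43), with 0.68 for COL15A1, 0.62 for the second COL1A2 probe and 0.54 for COL18A1.

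The other genes of the collagen pathway could be named only where the study's list holds them, so that a lower value in B is again a matter of naming, and the counts below stand beside the 74.5% of that list called lower in B. Besides the 6 probes the list names COL16A1 and COL4A2, a chain of the basement membrane network, and 1 of these 2 was called lower in B. The COL4A2 probe had a median of -0.37 in 18 B pigs and -0.22 in 18 LW pigs, the arrays with an outlier spot being left out, with a difference of -0.15 (SE 0.09, adjusted P = 0.301). Of 30 genes of collagen synthesis and cross-linking 4 were named, and 3 of their 4 probes were called lower in B. LEPREL4, a protein of the prolyl hydroxylase complex of the endoplasmic reticulum, differed by -0.70 (SE 0.09), CRTAP of the prolyl 3-hydroxylase complex by -0.30 (SE 0.06) and LOXL1, a lysyl oxidase that cross-links matrix proteins, by -0.18 (SE 0.06). LEPREL1, a prolyl 3-hydroxylase, had -0.13 (SE 0.05, adjusted P = 0.0955).

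Of 29 genes of collagen binding and matrix assembly 11 were named, by 14 probes, of which 10 were called lower in B (median -0.39). SMOC2, a matricellular protein, differed by -0.45 (SE 0.04, adjusted P = 5.08e-09) and SPARC, which binds collagen and takes part in its processing, by -1.47 (SE 0.16) and -0.68 (SE 0.09) on its probes. DPT, dermatopontin, differed by -0.63 (SE 0.13) and -0.38 (SE 0.08) and ECM1, a secreted matrix protein, by -0.31 (SE 0.08, adjusted P = 0.00635). The median r of this list with the collagen mean was 0.67 (0.37 to 0.85), next to 0.69 for COL16A1 and COL4A2. For synthesis and cross-linking the median r was 0.31 (0.00 to 0.71). These r values, and those of the lists below, stand beside 0.16, the median over probes with a symbol. The lists were not tested against each other.

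Of 9 genes of matrix breakdown 2 were named, and 1 of these 2 probes was called lower in B. The metalloprotease ADAMTS8 differed by -1.95 (SE 0.40, adjusted P = 0.000519), and CTSK, cathepsin K, by -0.09 (SE 0.04, adjusted P = 0.112); their r with the collagen mean was 0.43 and 0.35. Of 9 collagen receptor genes 2 were named and both probes were called, DDR1, a receptor tyrosine kinase for collagen, by -0.78 (SE 0.12) and CD44 by -0.18 (SE 0.06). DDR1 ran against the collagen probes between pigs (r = -0.52), while CD44 had r = 0.33. Over both breeds together, none of the probes of these lists reached an unadjusted P value under 0.05 between housing systems. Within LW 1 of 14 probes of the binding list (FMOD) and 1 of 2 of the breakdown list (ADAMTS8) did, against 2.95% of all tested probes, both higher in alternative pigs and both with an adjusted P value of 1.

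Cell type markers were few among the named genes, and their counts called lower in B stand beside 74.5% over the list that names them, so that nothing is read from these counts. For the same reason their r is set beside 0.16, the median over probes with a symbol. Of 8 fibroblast markers 3 were named (DPT, DCN and CD248), by 4 probes, of which 3 were called lower in B (median -0.28). The probes of DPT and DCN also belong to the binding list above, so that these values are not separate from it. Their median r with the collagen mean, CD248 included, was 0.67 (0.65 to 0.85), and COL1A1, COL3A1, LUM, PDGFRA and THY1 were not named in the sources used here. CD248 also had an unadjusted P value under 0.05 for housing (-0.13, SE 0.06, P = 0.0234), as it had within LW (-0.16, SE 0.08, P = 0.0491), and neither passed the adjusted test. Of 7 pericyte and smooth muscle markers 3 were named (MYL9, PDGFRB and ACTA2), of which 2 were called lower in B, with a median r of 0.58 (0.40 to 0.67).

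Markers of muscle fibres, blood and vessels were named in part. Of 10 fibre markers 8 were named, by 9 probes, of which 4 were called lower in B (MYH1, CASQ2, TPM1 and TPM3), and the median r was 0.49 (0.28 to 0.70). Of 5 leukocyte markers 2 were named (IRF8 and CORO1A) and both were called lower in B, with a median r of 0.46. STAB1, the 1 named of 6 endothelial markers, was called lower in B (-0.31, SE 0.07) and had r = 0.24. Within LW it had an unadjusted P value under 0.05 for housing (0.25, SE 0.10, P = 0.0197), which did not pass the adjusted test. HBA2, the 1 named of 2 red blood cell markers, was not called on its 2 probes and had r = -0.05 and -0.01. Adipocyte markers were named for 0 of 5 genes. On arrays the levels of different probes cannot be summed, and the part of cell composition in the collagen values was not tested.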

How the data were processed

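The authors scanned each array with Agilent software and deposited spot intensities on a linear scale. A deposited series matrix holds log2 ratios; the methods name median centring within arrays and Rquantile between arrays, and the submitters' processing notes name limma without a version. Of the sample columns, 0 could not be matched. Local background was handled by normexp with an offset of 50 (limma 3.58.1, R 4.3.3) in Cy3 (pig) and Cy5 (pool). Ratios of pig to pool, on the log2 scale, were centred on the median of all gene spots of its array, and then 2396 spots that the scanner software had marked as outliers were set to missing. The 546 control spots were not used, while the 83 saturated ones stayed in. Testing was limited to 12222 probes, each well above background on 10 or more Cy3 arrays from B or from LW. A limma model of breed, housing, interaction and slide was fitted (7 slides, scanned on 3 days), each coefficient directly, and P values were adjusted by Benjamini-Hochberg over all tested probes. Neither litter nor slaughter session is known for a pig, so neither is in the model. Pigs of the same litter were treated as independent, in the model and in the permutation tests of correlations. Intervals are at the 95% level.

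The files used here give no gene names. Symbols are those of the study's list of 683 probes higher in LW, read as pairs of probe and symbol only; the list of genes higher in B was left aside, because its probe column is out of step with its symbols. The lowest correlation between arrays was -0.34, and the direction of the ratio was kept since the dyes are stated and the pool holds all 40 pigs. Members and lists were chosen with earlier results of these data known. At most 4 genes of a list are given with values, those with the smallest P value for breed, and alike genes by the highest r over residuals. Correlations were tested by 100000 permutations and adjusted over 30 relations; the rule that Pearson's and Spearman's tests must both pass was set with the data in hand. Python 3.11.15, NumPy 2.4.6, SciPy 1.17.1, pandas 2.3.3 and matplotlib 3.10.9 were used.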

Additional observations from a re-analysis of the deposited data

Results flagged for a closer look

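In each group of 10 pigs, the gap of the highest or lowest pig to its nearest neighbour was set against the range of the group for the 6 collagen probes. Of 24 groups, 3 had a pig farther out than Dixon's limit for 10 values, and chance gives about 1 in 20. LW conventional replicate 8 was low on the COL1A2 probe BM190694.1_1635, at -1.56 against -0.34 for the next pig (gap over range 0.581). The same pig was low on the COL15A1 probe BQ602320.1_1596, at -1.33 against -0.03 (0.712). B alternative replicate 16 was high on the COL6A3 probe BX669980.1_324, at 0.48 against 0.07 (0.49).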

How the results depend on the processing

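The number of probes called between breeds stayed within 1.5 times of 2593 under all 21 other settings, 5 of them added after the data were seen (2131 to 3783) and without each pig (2349 to 3110). With Cy3 intensity after Rquantile, not centred on array medians, 15.9% of its 2337 calls were lower in B, against 45.3% of the calls in the text. The median of all probes moved by 0.07. The number of collagen probes called lower in B was 5 with the processed signals, loess or the series matrix, and 0 with Cy3 intensity. It was 4 with no background correction, the least variable probes left out, array weights or the lowest pigs left out. Without single pigs it ran from 2 to 5, with 5 without LW conventional replicate 8. The cause was not tested. The median taken after outlier spots were left out, robust or trended variance and contrasts of group means (2583, 2589, 2606 and 2597 probes called) left it at 3. Over all probes the calls lower in B moved too, from 1175 to 1774 with the processed signals, 1782 with loess and 1633 in the series matrix. They were 1371 with no background correction, 965 with the least variable probes left out and 1484 with array weights. With the lowest pigs left out they were 1223, and with Cy3 intensity 371. Nothing is read from the collagen counts beside these. All 6 breed differences stayed below 0 in every setting run. The disagreement of the COL1A2 probes was -0.18 with the processed signals and -0.21 in the series matrix, no longer past the threshold, and ran from -0.42 to -0.30 without single pigs. Collagen pairs called within B were 5 with no background correction, 6 with the processed signals, 7 with loess or the series matrix, 8 with Cy3 intensity, 4 on residuals, and 1 to 6 without single pigs. Within LW they were 5 with the processed signals, loess or residuals, 6 in the series matrix, 9 with Cy3 intensity, and 1 to 6 without single pigs. With the lowest pig of each breed left out, 1 pair was called in each. The median r ran from 0.38 to 0.60 in B and from 0.31 to 0.59 in LW over the settings. Without single pigs it ran from 0.31 to 0.49 in B and from 0.31 to 0.56 in LW. No collagen probe was called for housing or the interaction in any setting. Replicate numbers are shared by B and LW pigs but do not pair them: of 20 numbers 3 had deviations correlated over 0.1 (median r -0.018), and 2 B pigs correlated best with their own number. With the replicate block 2206 probes and 0 collagen probes were called between breeds, at differences of -0.46 (first COL1A2 probe), -0.32 (COL15A1) and -0.26 (COL18A1), and housing could not be fitted. Among the 6 collagen probes, signal over background is lowest for the second COL1A2 probe, with a median ratio of 2.64.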
